A study of Mus musculus with 4 samples.

Results

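The 10 members were named by symbol: Tcf21, Meox2, Maf, Ebf1, Mef2c, Zeb1, Zeb2, Twist1, Prrx1 and Lbh, which are transcription regulators known from mesenchymal tissues. They are 10 of the 20674 genes listed in the 4 expression matrices of the series, and all 10 had a row in every matrix. Their Ensembl identifiers in the files are ENSMUSG00000045680 (Tcf21), ENSMUSG00000036144 (Meox2), ENSMUSG00000055435 (Maf), ENSMUSG00000057098 (Ebf1), ENSMUSG00000005583 (Mef2c), ENSMUSG00000024238 (Zeb1), ENSMUSG00000026872 (Zeb2), ENSMUSG00000035799 (Twist1), ENSMUSG00000026586 (Prrx1) and ENSMUSG00000024063 (Lbh). The cells came from embryonic mouse lungs of the C57BL/6 strain. The first sample, labelled E16.5 (days of embryonic life) and taken from 1 lung, held cells sorted by flow cytometry for both a green reporter of alpha smooth muscle actin (αSMA-GFP) and a red tdTomato lineage mark left at the Rosa26 locus by Tbx4-Cre, a driver active in the lung mesenchyme. The other 3 samples, labelled WT1, WT2 and WT3 and called lungs 1, 2 and 3 here, held live cells of all kinds from 3 lungs labelled E17.5. The stage, the reporter alleles, the sort and the library all differ between the sorted sample and the lungs, so these cannot be told apart, and the sorted sample has no replicate. Whether the E17.5 lungs came from separate litters was not given in the sources used here, and p-values measure the spread between these 3 lungs.

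As background, the lung mesenchyme holds fibroblasts of the alveolar wall that make matrix and store lipid, contractile myofibroblasts of the saccules, pericytes that wrap capillaries, and muscle of airways and vessels. The members belong to several protein families. Tcf21 and Twist1 are basic helix-loop-helix factors, which bind E-box DNA as partners of E proteins. Meox2 and Prrx1 are homeodomain factors, Maf is a leucine zipper factor, Ebf1 is an early B cell factor also found in pericytes, and Mef2c is a MADS-box factor of muscle and endothelium. Zeb1 and Zeb2 are zinc finger repressors known for silencing epithelial genes, and Lbh is a small transcription cofactor first described in limb bud and heart.

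The 4 matrices held 3085 sorted cells and 2682, 2140 and 2657 cells of lungs 1, 2 and 3. Totals of unique molecular identifiers (UMIs, one for each captured RNA molecule) were 41038008 in the sort and 20347458 to 23996253 in the lungs, and any pair of matrices shared 7 to 13 cell barcodes. Levels are counts per 1e6 UMIs of a cell (CPM), averaged over the cells of a class in one lung. No cell annotation was used from the submitters: cells were clustered on genes that exclude all 10 members, and clusters were named from marker lists. Of 3054 sorted cells that remained after removing called doublets, 2989 were mesenchymal. The lungs held 737, 581 and 619 mesenchymal cells beside epithelium, endothelium, immune cells and 32 mesothelial cells, too few to test. The matrix fibroblast-like class (332 sorted cells and 386, 281 and 292 lung cells) had the highest level of all 11 of its markers in every lung, and of 10 in the sort. The myofibroblast-like class (951 sorted cells and 178, 130 and 152 lung cells) led for 9 of 10 markers in the lungs and 8 in the sort. The pericyte-like class (1047 sorted cells and 70, 73 and 56 lung cells) led for 10 of 11 markers in every sample, the exception being Rgs5. The fourth class, named for Agtr2, Penk and Dpep1 (29 sorted cells and 62, 70 and 72 lung cells), was a mixture of unlike cells in the lungs, as described further on, and its averages are given only with that limit.

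Among the mesenchymal subclasses of the E17.5 lungs, the matrix fibroblast-like cells held the highest mean levels of Tcf21, Meox2, Maf and Lbh. A part of the mixed Agtr2 class, described further on, also had high Tcf21, at 1274, 1435 and 1491 CPM in lungs 1, 2 and 3. The pericyte-like cells held the highest level of Ebf1. The myofibroblast-like cells were low for all 5 of these factors, and among the 9 members tested only Mef2c was called higher there than in the other subclasses. Of the 10 members, 9 reached the mean of 10 CPM needed for testing among the subclasses, and Twist1 did not. In the matrix fibroblast-like class 4 of the 9 were higher than the mean of the other 3 subclasses, where 10.7% of all 4103 tested genes were higher. Another 4 members were lower, against 19% of all genes. In the myofibroblast-like class 1 of 9 was higher (19.4% of all genes) and 7 were lower (13% of all genes). In the pericyte-like class 3 were higher (20.4%), namely Ebf1, Zeb2 and Mef2c, and 5 were lower (17.9%), namely Maf, Lbh, Prrx1, Tcf21 and Meox2. Among these, the Mef2c call (0.32) was lost without lung 1 or without lung 2 (limma adjusted p = 0.167 and 0.0920), the Meox2 call (−0.34) without any of the 3 lungs, and the Prrx1 call without lung 2 (−0.07). All of these calls used limma on log2(CPM + 10) with the lung as a block and an adjusted p under 0.05. With the genes scaled by median of ratios in place of CPM, 583 genes were higher and 606 lower in the matrix fibroblast-like class, beside 438 and 779 on the CPM scale. In direct pairs, matrix fibroblast-like cells were higher than myofibroblast-like cells for 5 of 9 members and lower for 1 (10.4% and 19% of all genes), and higher than pericyte-like cells for 4 and lower for 4 (14% and 20.6%). Myofibroblast-like cells were higher than pericyte-like cells for 0 and lower for 6 (19.8% and 16.8%).

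**Figure D1:**
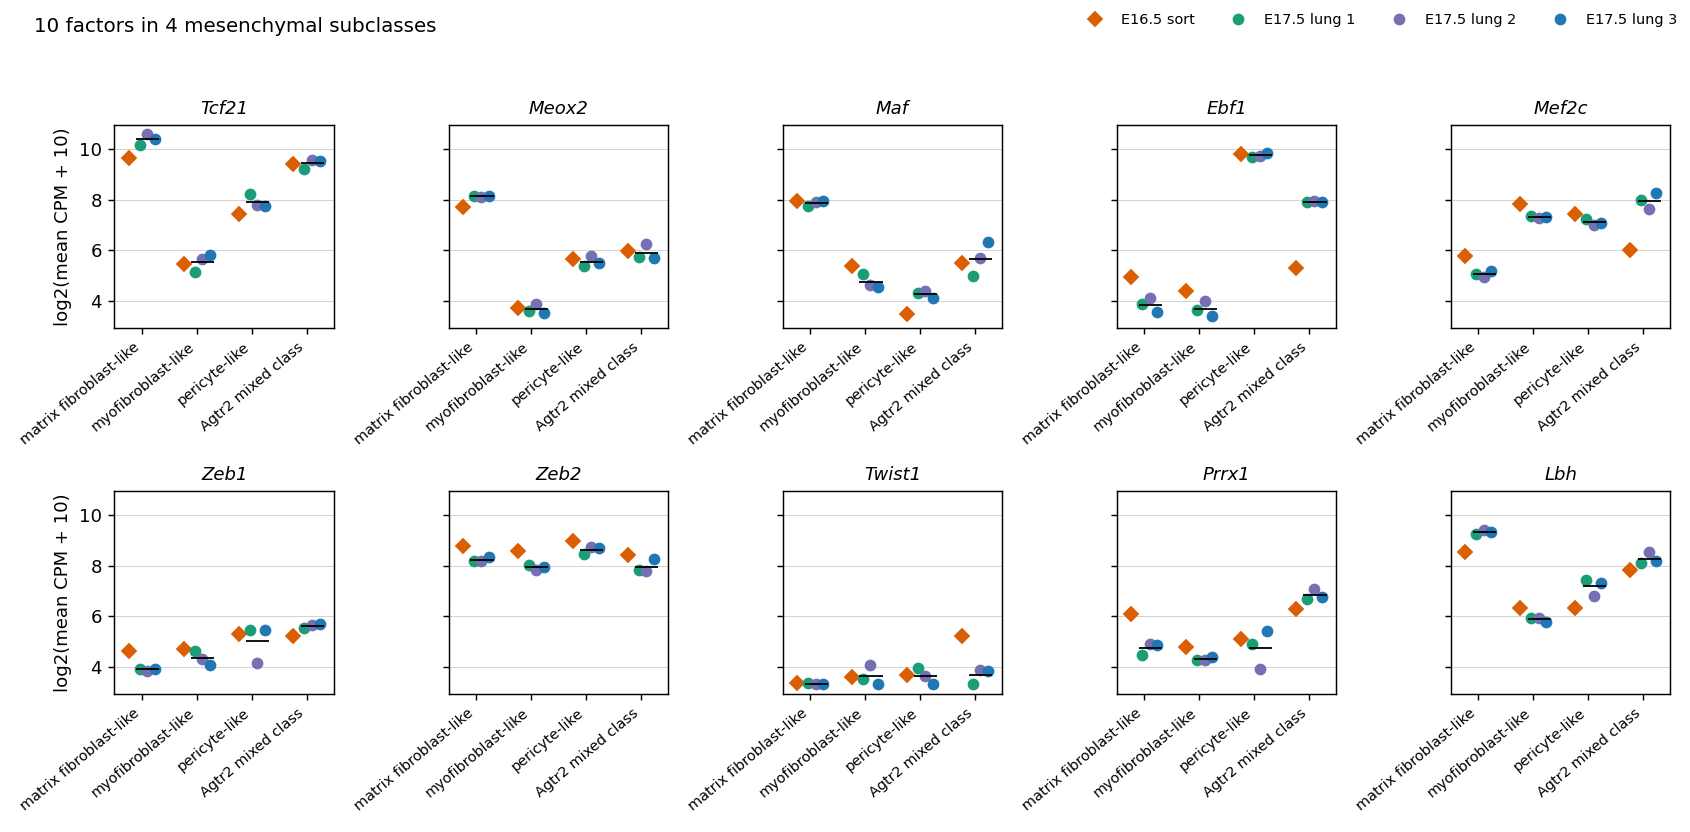
Level of each of the 10 members in the 4 mesenchymal subclasses, as log2(mean CPM + 10), with a circle for each E17.5 lung, a line for the mean of the 3 lungs and a diamond for the single E16.5 sort. Tcf21, Meox2, Maf and Lbh peak in the matrix fibroblast-like class, Ebf1 peaks in the pericyte-like class, and Zeb2 is nearly level over the classes.

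Tcf21, a factor required for lung mesenchyme and fibroblast development, measured 1132, 1504 and 1329 CPM in the matrix fibroblast-like cells of lungs 1, 2 and 3. In the pericyte-like cells it measured 285, 213 and 207 CPM, and in the myofibroblast-like cells 25.3, 41.0 and 46.6 CPM. The 3 classes did not overlap in any lung. The matrix fibroblast-like level exceeded the myofibroblast-like level by 4.82 ± 0.13 (SE) on the log2(CPM + 10) scale (limma adjusted p = 1.97e-18) and the pericyte-like level by 2.45 ± 0.13 (adjusted p = 2.27e-13). The pericyte-like level exceeded the myofibroblast-like level by 2.38 ± 0.13 (limma adjusted p = 3.95e-13). With every cell thinned to 2000 UMIs, a Tcf21 UMI was found in 81.4% ± 3.02 (SD, n = 3) of matrix fibroblast-like, 31.1% ± 7.14 of pericyte-like and 7.07% ± 1.26 of myofibroblast-like cells. Without thinning the shares were 96.0%, 70.7% and 19.9%. In epithelial cells the thinned share was 0.829% ± 0.182 and the unthinned one 5.48%.

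Lbh followed the order of Tcf21. It measured 603, 671 and 630 CPM in the matrix fibroblast-like cells, 162, 103 and 148 CPM in the pericyte-like cells and 50.8, 50.7 and 45.5 CPM in the myofibroblast-like cells of lungs 1, 2 and 3. For both Lbh and Tcf21, the order was matrix fibroblast-like, Agtr2 class, pericyte-like and myofibroblast-like. Every neighbouring pair differed (limma adjusted p between 2.22e-08 and 9.79e-07 for Lbh). The place of the Agtr2 class holds for its average alone. Its sub-clusters 1 to 4, described further on, had mean Tcf21 at 1400, 142, 671 and 42.6 CPM. Their mean Lbh was at 429, 138, 362 and 210 CPM. The matrix fibroblast-like cells exceeded the myofibroblast-like cells by 3.45 ± 0.13 for Lbh (limma adjusted p = 7.19e-16).

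Meox2, a homeobox factor of somites and vessels, had close matrix fibroblast-like levels in the 3 lungs, at 271, 268 and 269 CPM. The pericyte-like cells measured 31.5, 45.4 and 35.7 CPM and the myofibroblast-like cells 2.35, 4.93 and 1.65 CPM, the latter from 9 UMIs in 460 cells. The matrix fibroblast-like level was higher than the pericyte-like one by 2.57 ± 0.16 (limma adjusted p = 2.79e-12) and than the myofibroblast-like one by 4.44 ± 0.16 (adjusted p = 2.02e-16). Maf, the c-Maf leucine zipper factor, measured 202, 228 and 236 CPM in matrix fibroblast-like cells and 23.5, 14.7 and 13.7 CPM in myofibroblast-like cells. Its pericyte-like level was 9.96, 11.4 and 7.35 CPM, close to its epithelial level of 10.3 ± 0.930 CPM (SD, n = 3). The difference between the myofibroblast-like and pericyte-like levels of Maf did not pass the test (log2 difference 0.47, 95% interval −0.01 to 0.95, limma adjusted p = 0.120). Maf thus separated matrix fibroblast-like from both other classes, by 3.10 ± 0.23 and 3.57 ± 0.23, while Tcf21, Lbh and Meox2 separated all 3.

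UMIs of these factors were often found in the same matrix fibroblast-like cell. A UMI of both Tcf21 and Lbh was present in 90.9% ± 2.10 (SD, n = 3 lungs) of these cells without thinning, of both Tcf21 and Meox2 in 73.4% ± 6.13, and of both Tcf21 and Maf in 70.1% ± 6.36. Each of these shares follows the depth of the cells as well as the levels, with median depths of 6849.5 to 8432 UMIs per cell. Taken singly, Tcf21 was found in 96.0%, Lbh in 94.2%, Meox2 in 75.0% and Maf in 71.9% of these cells. Whether the joint shares differ from what the single shares would give was not tested. The promoters of the 3 members with the matrix fibroblast-like class at the top and all 3 classes apart are shown here, since their levels moved together over the classes. They are the 250 bases before the annotated start, from RefSeq (GRCm38.p6), written 5′ to 3′ along the gene, with matches to the E-box CANNTG in capitals. Tcf21 lies at chr10:22820144-22820393 on the minus strand, Lbh at chr17:72918055-72918304 on the plus strand and Meox2 at chr12:37108290-37108539 on the plus strand.
Tcf21: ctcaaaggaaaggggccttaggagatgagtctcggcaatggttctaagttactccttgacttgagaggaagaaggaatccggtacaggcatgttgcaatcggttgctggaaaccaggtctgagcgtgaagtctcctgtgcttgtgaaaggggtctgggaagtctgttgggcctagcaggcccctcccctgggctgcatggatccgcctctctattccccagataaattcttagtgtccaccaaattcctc
Lbh: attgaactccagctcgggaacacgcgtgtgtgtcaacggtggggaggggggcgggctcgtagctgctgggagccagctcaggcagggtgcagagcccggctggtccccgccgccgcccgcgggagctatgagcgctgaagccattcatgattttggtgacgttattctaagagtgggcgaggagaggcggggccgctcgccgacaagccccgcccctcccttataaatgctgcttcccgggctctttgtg
Meox2: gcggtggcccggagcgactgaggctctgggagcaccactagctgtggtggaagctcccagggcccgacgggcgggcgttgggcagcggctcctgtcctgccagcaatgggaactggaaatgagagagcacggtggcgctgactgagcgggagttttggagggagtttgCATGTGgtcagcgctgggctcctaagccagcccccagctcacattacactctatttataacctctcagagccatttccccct
The letters CANNTG, which read the same way on both strands, occurred 0 times before Tcf21, 0 times before Lbh and 1 time before Meox2. Over all 32851 RefSeq promoters of this length, 66.2% held at least 1 match. The base composition differed between the 3: Lbh had 64.8% GC and 21 CpG, Meox2 62% and 12, and Tcf21 52.4% and 5, beside medians of 52.4% and 6 over all promoters. Of the other members, Ebf1, Mef2c, Zeb2, Twist1 and Prrx1 had an entry, and Maf and Zeb1 were not matched.

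Among the subclasses Ebf1 was highest in the pericyte-like cells, though not limited to them. It measured 818, 828 and 912 CPM in these cells of lungs 1, 2 and 3. Matrix fibroblast-like cells measured 4.68, 7.38 and 1.97 CPM and myofibroblast-like cells 2.63, 6.19 and 0.716 CPM, from 35 and 11 UMIs over all lungs. A part of the mixed Agtr2 class, described further on, had Ebf1 at 402, 515 and 637 CPM. The pericyte-like level exceeded the mean of the other subclasses by 4.59 ± 0.12 (limma adjusted p = 3.25e-19), higher in 3 of 3 lungs. Matrix fibroblast-like and myofibroblast-like cells did not differ by the test (log2 difference 0.16, 95% interval −0.15 to 0.47, limma adjusted p = 0.488). After thinning, an Ebf1 UMI was found in 77.7% ± 2.94 of pericyte-like cells and 0.701% ± 0.608 of matrix fibroblast-like cells, beside 0.163% ± 0.146 of epithelial cells.

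Tcf21 and Ebf1 overlapped in the pericyte-like cells and hardly elsewhere among the 3 named classes. Without thinning, both were found in 68.7% ± 3.65 (SD, n = 3 lungs) of pericyte-like cells, where Ebf1 alone was found in 28.4% ± 4.89. The single shares there were 70.7% for Tcf21 and 97.1% for Ebf1, and a link between them within cells was not tested. In matrix fibroblast-like cells both were found in 3.33% ± 1.82 and Tcf21 alone in 92.7% ± 0.691. In myofibroblast-like cells neither was found in 78.7% ± 6.38.

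Mef2c, which with Srf and Myocd drives muscle gene programs, was lowest in the matrix fibroblast-like cells at 23.6, 21.3 and 26.4 CPM in lungs 1, 2 and 3. The myofibroblast-like cells measured 153, 143 and 151 CPM and the pericyte-like cells 142, 118 and 124 CPM. These last values did not differ by the test (log2 difference 0.21, 95% interval −0.05 to 0.48, limma adjusted p = 0.214), and each was higher than the matrix fibroblast-like level, by 2.24 and 2.03 on the log2 scale (adjusted p = 7.51e-13 and 3.32e-12). Mef2c and Ebf1 were both found in 56.8% ± 6.00 of pericyte-like cells without thinning.

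Of the paired repressors Zeb1 and Zeb2, only Zeb2 was nearly level over the classes. Zeb2 measured 283, 282 and 311 CPM in matrix fibroblast-like, 252, 218 and 238 CPM in myofibroblast-like and 344, 415 and 398 CPM in pericyte-like cells. Only the pericyte-like class was higher than the mean of the others for Zeb2, by 0.58 ± 0.08 (limma adjusted p = 3.15e-06), and the myofibroblast-like class was below it (−0.33, adjusted p = 0.0029, or 0.0548 without lung 3). Zeb1 was sparse, at 5.43, 4.40 and 5.27 CPM in matrix fibroblast-like, 14.8, 9.76 and 7.09 CPM in myofibroblast-like and 33.8, 7.78 and 34.2 CPM in pericyte-like cells. The matrix fibroblast-like level of Zeb1 fell below the mean of the other subclasses by 1.09 (limma adjusted p = 1.47e-04). Lung 2 was low for Zeb1 in pericyte-like cells, and the pericyte-like difference from the other subclasses did not pass the test (0.40 ± 0.20, limma adjusted p = 0.131). It passed without lung 2 (0.82, limma adjusted p = 0.00632).

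Prrx1 and Twist1, homeodomain and helix-loop-helix factors of limb and head mesenchyme, were low in all 3 named classes. Prrx1 measured 12.3, 20.0 and 18.9 CPM in matrix fibroblast-like, 9.64, 9.63 and 10.95 CPM in myofibroblast-like and 20.4, 5.25 and 32.8 CPM in pericyte-like cells. None of the 3 pairs among these classes passed the test for Prrx1, the largest difference being 0.43 lower in myofibroblast-like than in pericyte-like cells (limma adjusted p = 0.191). Twist1 gave 19 UMIs in all 1937 mesenchymal cells of the lungs, 1 of them in the 959 matrix fibroblast-like cells. At this depth its order over the classes was not detectable.

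**Figure D2:**
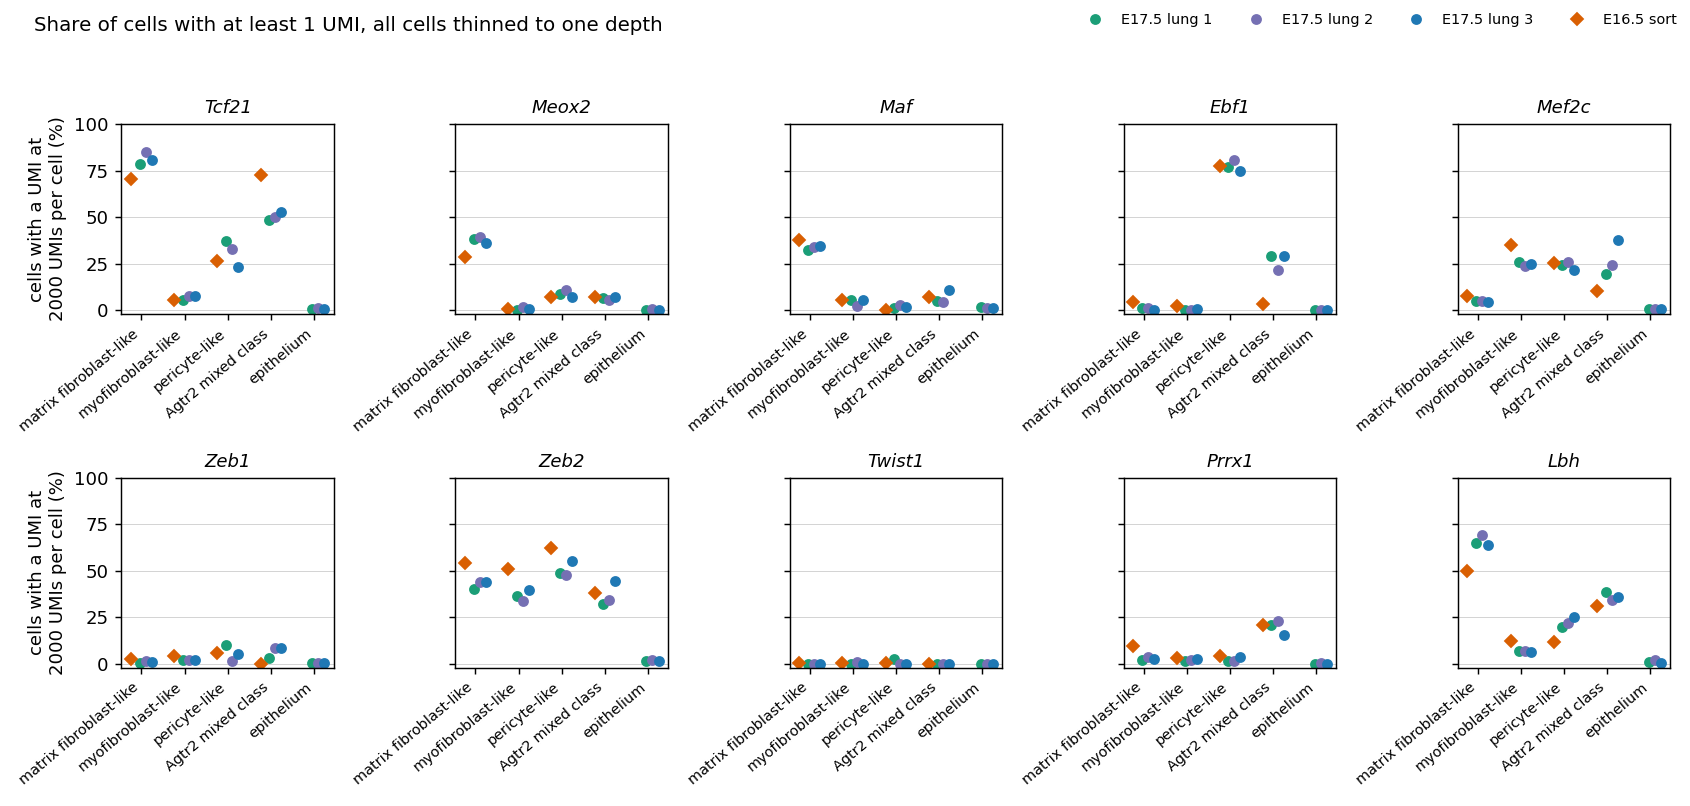
Percent of cells with at least 1 UMI of a member after each cell was thinned to 2000 UMIs, by mesenchymal subclass and in epithelium, with a circle for each E17.5 lung and a diamond for the E16.5 sort (not shown for epithelium). In the lungs Tcf21 and Lbh are in most matrix fibroblast-like cells (means of 81.4% and 66.0%), Ebf1 is in 77.7% of pericyte-like cells, and Zeb1 and Twist1 are in few cells of any class.

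The Agtr2 class of the lungs averaged unlike cells. When its 204 cells were divided again, a step added after its values were seen, 4 sub-clusters appeared, each with cells of every lung. These are described without a test, since a lung held only 9 to 27 cells of each. The first, 73 cells, was led by Igfbp2, Cxcl14, Col2a1 and Wif1, with Penk and Dpep1 also among its leading genes. Its Tcf21 was at 1274, 1435 and 1491 CPM, above the matrix fibroblast-like level in lungs 1 and 3. Its Ebf1 was at 18.01 ± 12.5 CPM (SD, n = 3), from 7 UMIs. The second, 52 cells, was led by Hist1h2ap, a gene of dividing cells, then Fabp4, Itga7, Parm1 and Actg2. It had Ebf1 at 402, 515 and 637 CPM, Mef2c at 561, 362 and 790 CPM and Tcf21 at a mean of 142 CPM. The third, 44 cells, was led by Dcn, Dpt and Ptn, with Figf, Agtr2 and Meox2 also among its leading genes. It had the highest Prrx1 of the 4, at 180, 153 and 151 CPM, with Tcf21 at 671 ± 32.2 CPM and Ebf1 at 283 ± 101 CPM. The fourth, 35 cells, was led by Myl7, Sost, Cxcl13 and Myl4, with the heart muscle genes Actc1 and Tnnt2 also among its leading genes. It had Ebf1 at 208 ± 4.62 CPM, Mef2c at 293 ± 168 CPM and Tcf21 at a mean of 42.6 CPM. The genes that name the class were low in sub-clusters 2 and 4. Over sub-clusters 1 to 4, Agtr2 was at 565, 21.0, 387 and 7.11 CPM. Penk was at 569, 47.8, 68.6 and 0 CPM, and Dpep1 at 1062, 27.7, 233 and 29.0 CPM. Acta2 had the reverse order, at 243, 4704, 687 and 4156 CPM, as did Tagln, at 105, 2642, 285 and 4466 CPM.

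As a whole this mixed class was higher than the mean of the other subclasses for 6 of 9 members, where 11.4% of all 4103 genes were higher, and lower for 1, Zeb2, where 14.3% were lower. The Zeb2 call (−0.32) was lost without lung 1 or without lung 2. Prrx1 led, with 93.9, 124 and 97.9 CPM in lungs 1, 2 and 3 and a log2 difference of 2.23 ± 0.21 (limma adjusted p = 5.88e-09). It was high in every sub-cluster, at means from 86.2 to 161 CPM, above all values of the 3 named classes in any lung. In pairs, it was lower than matrix fibroblast-like cells for 5 members and higher for 4 (10.6% and 13.6% of all genes), higher than myofibroblast-like cells for 8 (11.6%, with 17.3% lower), and lower than pericyte-like cells for 2 and higher for 5 (18.6% and 14.6%). The class's Ebf1 (228, 235 and 231 CPM) and Mef2c (240, 189 and 297 CPM) were averages over sub-clusters that differed widely. Mef2c was highest in sub-clusters 2 and 4 (means of 571 and 293 CPM), which were low for the genes that name the class. Ebf1 was high in these (518 and 208 CPM) and also in sub-cluster 3 (283 CPM). Because every subclass is compared with the mean of the other 3, the mixed class enters those comparisons too. Without it, the pericyte-like class had 3 members lower in place of 5, and its Tcf21 difference went from −0.53 to −0.04. Prrx1 turned from −0.56 to 0.20 in matrix fibroblast-like cells and from −0.55 to 0.22 in pericyte-like cells. Its call in matrix fibroblast-like cells (limma adjusted p = 0.0401) was also lost without lung 1 or lung 3. In myofibroblast-like cells, Prrx1 went from −1.12 to −0.43 without the mixed class and lost its call (limma adjusted p = 0.130).

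In the sorted E16.5 cells Tcf21, Meox2, Maf and Lbh were again highest, among the named classes, in matrix fibroblast-like cells, and Ebf1 in pericyte-like cells. Tcf21 was at 789 CPM in matrix fibroblast-like, 160 in pericyte-like and 34.2 in myofibroblast-like cells. The summed UMIs gave 762 CPM in the first of these, with an exact Poisson 95% interval of 732 to 794 that covers counting error only. Meox2 measured 197, 40.004 and 3.45 CPM and Lbh 361, 71.3 and 71.0 CPM in the same order. Maf measured 239 CPM in matrix fibroblast-like cells and 31.7 in myofibroblast-like cells, and 14 UMIs in 1047 pericyte-like cells gave 1.35 CPM. Ebf1 was at 869 CPM in pericyte-like cells, beside 20.9 in matrix fibroblast-like and 11.1 in myofibroblast-like cells. Mef2c was at 45.4 CPM in matrix fibroblast-like, 218 in myofibroblast-like and 161 in pericyte-like cells.

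The sort also resolved finer clusters. Its 4 pericyte-like clusters had Ebf1 at 1028, 707, 859 and 671 CPM and Tcf21 between 135 and 177 CPM. One of 3 myofibroblast-like clusters, of 111 cells, held Tcf21 at 145 CPM, Maf at 179 CPM and Lbh at 199 CPM. An unnamed cluster of 151 cells led by Map3k7cl and Fabp4 had Ebf1 at 607 CPM, Mef2c at 474 CPM and Prrx1 at 113 CPM. Another unnamed cluster of 117 cells, led by Ptn, Figf and Fbln5, had Prrx1 at 155 CPM, Ebf1 at 353 CPM and Tcf21 at 324 CPM. The 82 cells of a cardiac muscle-like cluster had Mef2c at 242 CPM. In dividing cells, Tcf21 was at 574 CPM in the sort's unnamed cycling cluster of 113 cells. The lungs' unnamed cycling cluster of 115 cells had Tcf21 at 633, 541 and 752 CPM and Ebf1 at 3.83 CPM or less.

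**Figure D3:**
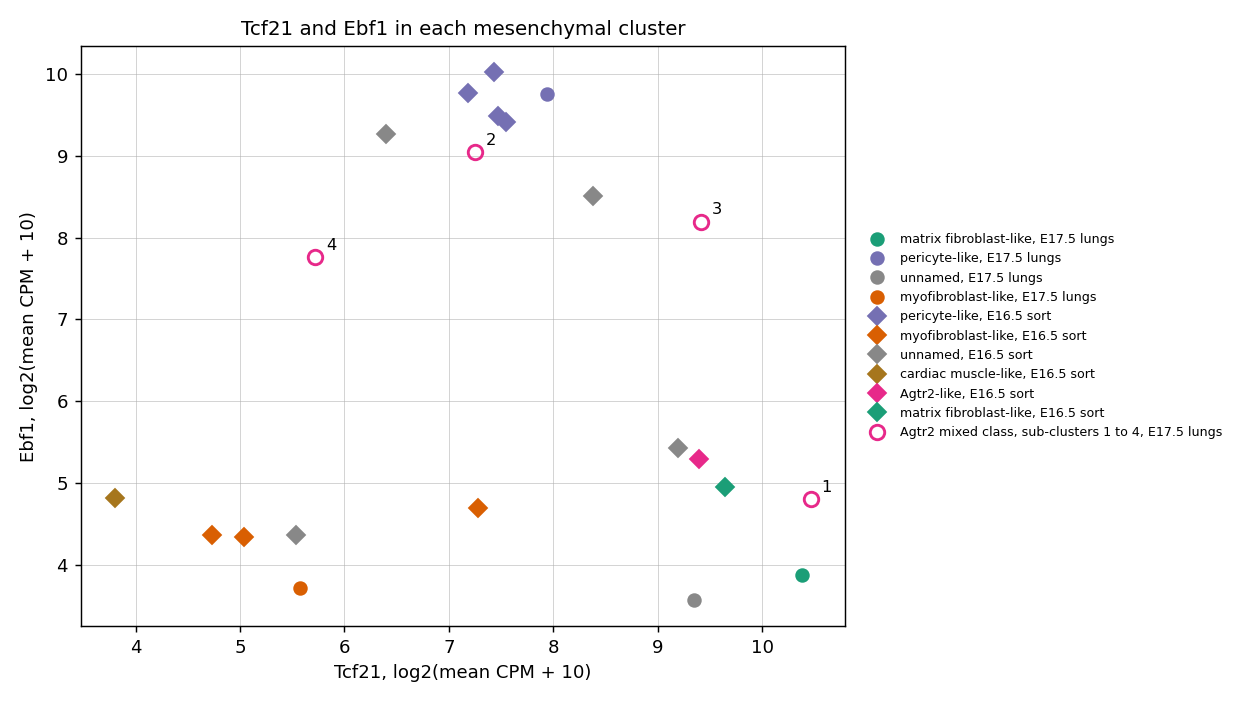
Tcf21 against Ebf1, both as log2(mean CPM + 10), with a circle for each mesenchymal cluster of the E17.5 lungs (mean of 3 lungs), open circles 1 to 4 for the sub-clusters of the mixed Agtr2 class and diamonds for clusters of the E16.5 sort. Matrix fibroblast-like clusters lie high in Tcf21 and low in Ebf1, pericyte-like clusters are high in Ebf1 with Tcf21 between 135 and 235 CPM, and sub-cluster 3 is high in both (671 and 283 CPM).

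Between the sort and the lungs there is no test. A member was called apart where the sort lay at least 2-fold outside the range of the 3 lungs on the CPM + 10 scale. In matrix fibroblast-like cells 1 of 8 measured members was apart: Prrx1 was higher in the sort, at 57.6 CPM, than in the lungs, at 12.3, 20.0 and 18.9 CPM (185 UMIs, exact Poisson 95% interval 50.5 to 67.7 CPM for the summed UMIs). With cells over 10% mitochondrial UMIs left out the clusters of the sort shifted, to 248 matrix fibroblast-like cells and 120 in the Agtr2 class in place of 332 and 29. Prrx1 was then at 48.4 CPM and no longer apart, so its value depends on which cells the class takes in. Of all genes, 1.19% were apart upward and 3.07% downward in that class. In myofibroblast-like cells 0 of 7 members were apart (0.223% upward and 2.7% downward of all genes), and in pericyte-like cells 0 of 8 (0.23% and 2.07%). Among shifts under that limit, Ebf1 in matrix fibroblast-like cells was higher in the sort by 1.09 on the log2(CPM + 10) scale (20.9 CPM beside 1.97 to 7.38 CPM), and it was apart when lung 2 was left out or at Leiden resolution 0.5. Tcf21 and Lbh were lower in the sort's matrix fibroblast-like cells (−0.73 and −0.80), and Lbh in its pericyte-like cells (−0.84). Zeb2 was above the range of the lungs in each of the 4 classes of the sort, by 0.36 to 0.64 over their mean. In the Agtr2 class 3 of 10 members were apart. Twist1 was higher, on 6 UMIs in 29 cells, while Ebf1 (29.2 CPM on 8 UMIs) and Mef2c (54.1 CPM on 14 UMIs) were lower, against 1.43% of all genes upward and 5.05% downward. The 29 sorted cells were led by Cxcl14, Osr2, Igfbp2 and Penk, genes shared in part with the first sub-cluster of the lungs, so the class does not hold the same cells in both. In the larger class of 120 cells Twist1 was at 6.61 CPM and not apart, Maf was apart upward (167 CPM beside 38.6 to 74.2 CPM), and Ebf1 and Mef2c were lower as before.

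Against the other compartments of the E17.5 lungs, Tcf21, Meox2, Ebf1 and Lbh had levels in epithelium, endothelium and immune cells of at most 9.73% of their mesenchymal level. Mef2c and Zeb1 were higher in endothelium than in mesenchyme. Maf and Zeb2 were also high in some immune cells. A compartment mean follows both how many cells of each type it holds and the level per cell, so values are also given by cluster. Here 8 members reached the mean of 10 CPM over the 4 compartments, and Twist1 and Prrx1 did not. Tcf21 and Meox2 reached it through mesenchyme alone, being under 10 CPM in each other compartment. Ebf1 was over 10 CPM outside mesenchyme only in endothelium (10.9 CPM). The members were named as mesenchymal regulators, with earlier results of these data known. The counts that follow therefore describe them and do not test that name. Mesenchyme exceeded epithelium for 8 of 8 members, where 44.2% of all 4201 genes were higher and 25.5% lower. It exceeded endothelium for 6 of 8 (28.6% of all genes) and fell below it for 2 (39.9%). It exceeded immune cells for 8 of 8, where 51.2% of all genes were higher and 30.8% lower. On median-of-ratios scaling 1389 genes in place of 1856 were higher than in epithelium and 1510 in place of 2149 higher than in immune cells.

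**Figure D4:**
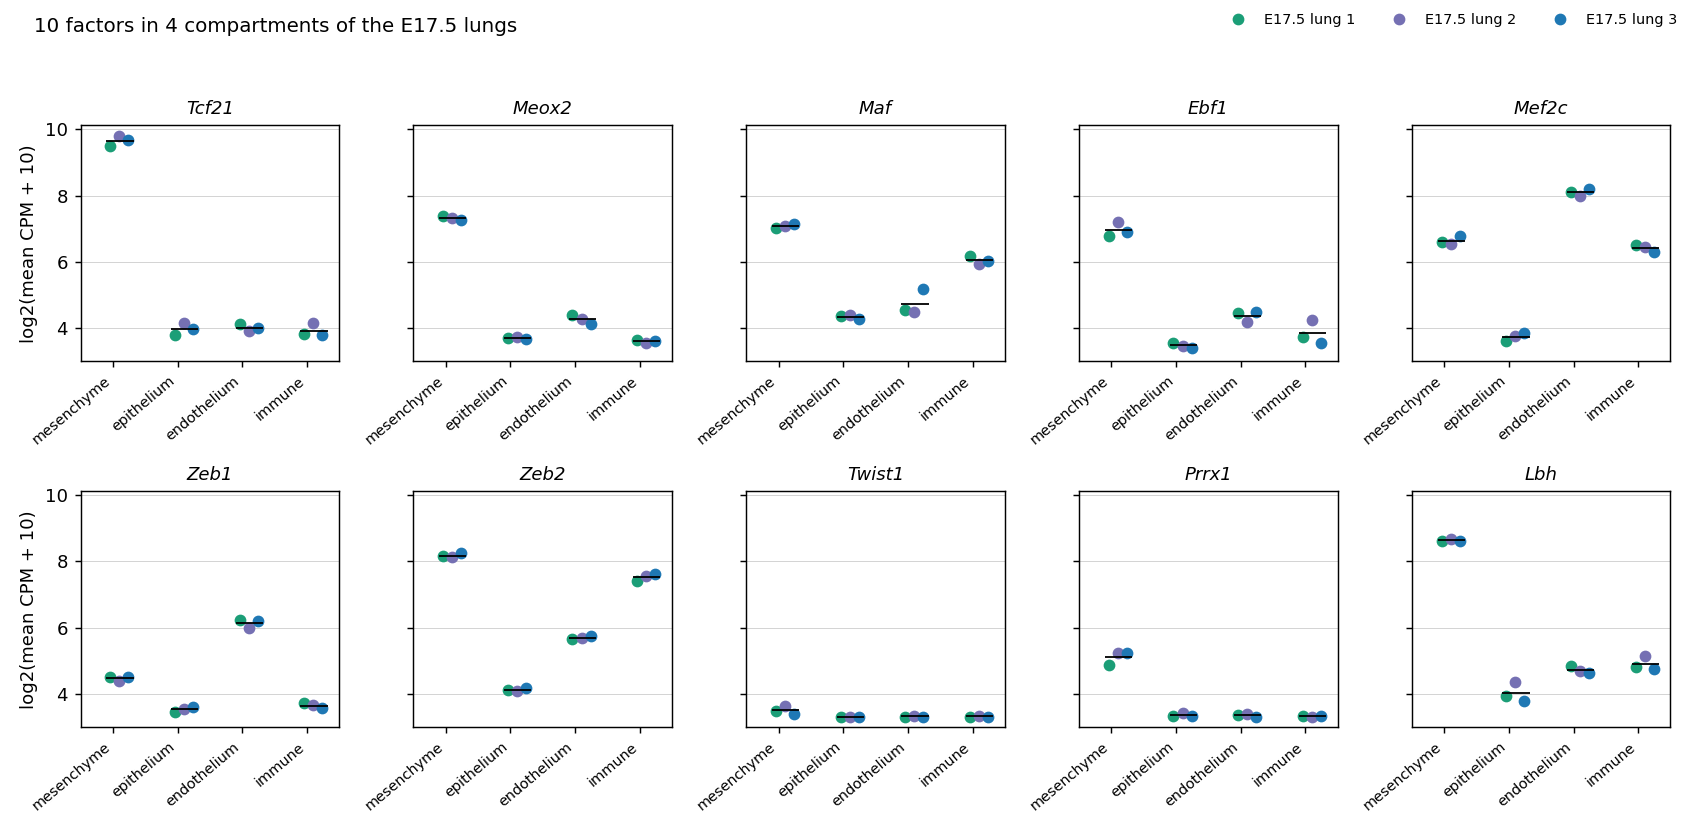
Level of each member in mesenchyme, epithelium, endothelium and immune cells, as log2(mean CPM + 10), with a point for each of the 3 E17.5 lungs and a line for their mean. Tcf21 lies at 710 CPM or more in mesenchyme and at 7.90 CPM or less in the other compartments shown, while Mef2c and Zeb1 are highest in endothelium.

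Tcf21 measured 710, 879 and 799 CPM in the mesenchyme of lungs 1, 2 and 3, beside 5.78 ± 1.91 CPM in epithelium, 6.23 ± 1.22 in endothelium and 5.28 ± 2.27 in immune cells (SD, n = 3). These levels were 0.652% to 0.800% of the mesenchymal one. Collagen Col1a1, a product of mesenchyme, was at 1.13% to 1.24% in the same compartments. Where these low levels come from was not tested. The mesenchymal excess of Tcf21 over epithelium was 5.68 ± 0.10 on the log2 scale (limma adjusted p = 1.4e-24). Since Tcf21 reached the fit through mesenchyme alone, this value is a description and not a test of its name. Lbh measured 383, 402 and 381 CPM in mesenchyme and 6.69 ± 3.50 CPM in epithelium, a difference of 4.60 ± 0.10. Meox2 measured 149 ± 5.76 CPM in mesenchyme and 3.01 ± 0.373 in epithelium, with 9.39 ± 1.69 CPM in endothelium, 6.27% of the mesenchymal level. Prrx1 was nearly limited to mesenchyme in its counts, at 19.2, 27.4 and 27.5 CPM there and at most 0.351 CPM on average in each other compartment, without a test.

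Mef2c was higher in endothelium (265, 245 and 284 CPM) than in mesenchyme (86.4, 83.2 and 99.5 CPM; limma, mesenchyme minus endothelium −1.46 ± 0.08, adjusted p = 9.17e-15). Zeb1 followed the same order, at 64.9, 53.2 and 63.8 CPM in endothelium and 12.8, 10.9 and 12.99 CPM in mesenchyme (limma, −1.67 ± 0.08, adjusted p = 4.82e-15). Zeb1 was still higher in mesenchyme than in epithelium by 0.93 ± 0.08 (limma adjusted p = 4.88e-10), where it was at 1.66 ± 0.543 CPM. Its relative Zeb2 had the opposite order, with 280 ± 13.6 CPM in mesenchyme and 41.8 ± 1.74 CPM in endothelium (2.48 ± 0.06 higher in mesenchyme, limma adjusted p = 2.24e-21). The difference of Mef2c from immune cells was small, at 0.21 ± 0.08 (limma adjusted p = 0.0134) with 80.2, 78.05 and 69.3 CPM in immune cells. Without lung 3 it was 0.09 (limma adjusted p = 0.355), and it turned to −0.16 on median-of-ratios scaling and to −0.11 in edgeR.

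Single clusters outside the mesenchyme held some members at levels like those of the mesenchymal subclasses. A macrophage-like cluster with C1qa and Pf4, of 78, 46 and 75 cells, had Maf at 495, 533 and 522 CPM and Mef2c at 459, 396 and 408 CPM, with Zeb2 at 228, 158 and 198 CPM. Maf in these cells was above its matrix fibroblast-like level (202 to 236 CPM) in every lung. Maf is known as a macrophage factor, and Mef2c as a myeloid one. An unnamed immune cluster led by Plac8 and Ifitm6 had the highest Zeb2 of the immune clusters plotted, at 305, 270 and 370 CPM, with Maf at 48.2, 28.7 and 66.8 CPM. Arterial-like endothelium, of 30, 19 and 25 cells, had Ebf1 at 96.4, 73.3 and 75.2 CPM, while the whole endothelium was at 10.9 ± 2.24 CPM. A small cluster with the mast cell and basophil genes Cma1, Tpsb2 and Mcpt8, of 16, 11 and 11 cells, had Ebf1 at 76.4, 199 and 11.1 CPM, too uneven to give an order. The 32 mesothelial cells had Maf at 104 ± 42.0 CPM and Tcf21 at 27.2 ± 34.0 CPM (SD, n = 3), with 1 cell in lung 2. Comparisons between single clusters here are descriptions with no test.

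**Figure D5:**
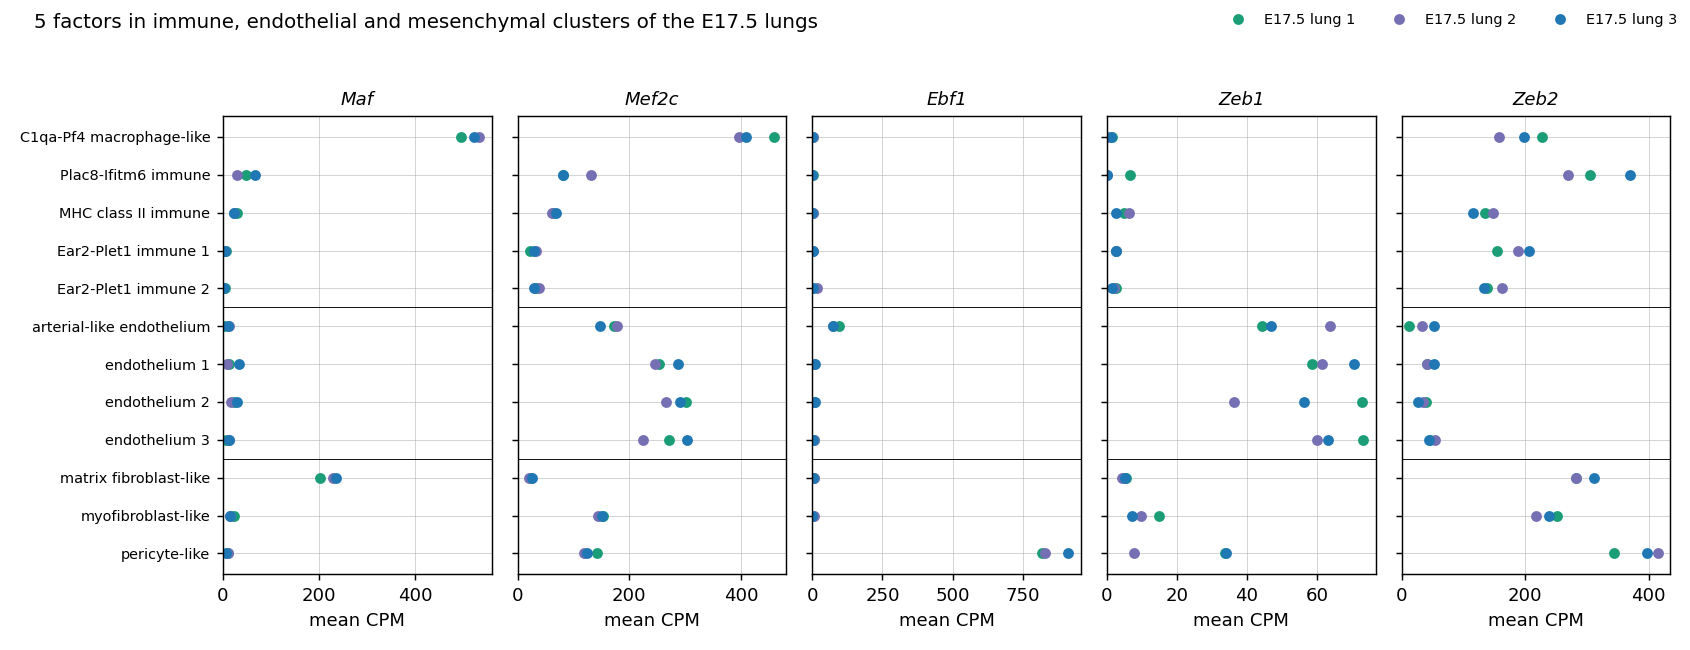
Levels of Maf, Mef2c, Ebf1, Zeb1 and Zeb2 in immune and endothelial clusters of the E17.5 lungs, with the 3 named mesenchymal subclasses for reference, in mean CPM on linear axes that differ between genes, with a point for each lung. Maf and Mef2c are highest in the macrophage-like cluster (495 to 533 and 396 to 459 CPM).

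Relatives of the members were followed from a list of 24 genes of the same families, of which 22 had a row in the files. In the subclass fit 12 of them were tested. In myofibroblast-like cells 6 of the 12 relatives were higher and 3 lower than in the other subclasses (19.4% and 13% of all genes), with a median log2 difference of 0.34 beside 0.06 over all genes. Scx, a helix-loop-helix factor of tendon, was at 65.5 CPM there and 1.74 CPM in the others (2.68). It reached the mean of 10 CPM through this class alone, at 1.10 CPM in matrix fibroblast-like, 1.21 in pericyte-like and 2.92 in Agtr2-class cells. The calls of Scx, which enter the counts of this list, are therefore descriptions and not tests. Meox1, the closest relative of Meox2, was at 33.6 CPM in myofibroblast-like cells and 5.57 CPM in the others (1.55). Among the mesenchymal subclasses Meox1 and Meox2 thus had their highest levels in different ones, myofibroblast-like and matrix fibroblast-like. Endothelium held Meox1 at 42.2 CPM, beside 13.5 CPM in the whole mesenchyme. In matrix fibroblast-like cells 2 of 12 relatives were higher and 4 lower (10.7% and 19% of all genes). The repressor Snai2 was at 132 CPM beside 45.7 CPM in the others (1.48), and Twist2 at 4.76 beside 64.4 CPM (−1.94). In pericyte-like cells 2 were higher and 3 lower (20.4% and 17.9%), the largest being Maff, at 116 beside 388 CPM (−1.55). In the mixed Agtr2 class 1 was higher, Twist2, at 138 beside 20.1 CPM (2.46), and 5 were lower (11.4% and 14.3%). All differences named here passed the test, with the limit given for Scx.

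Across compartments 11 relatives were tested, and 10 were higher in mesenchyme than in epithelium with 1 lower (44.2% and 25.5% of all genes). Snai1 was at 104 CPM in mesenchyme and 4.08 CPM in epithelium (3.01). Against endothelium 6 were higher and 2 lower (28.6% and 39.9%), led by Tcf15, at 3.38 CPM in mesenchyme and 63.8 CPM in endothelium (−2.47). Tcf15 reached the mean of 10 CPM through endothelium alone, at 1.23 CPM in epithelium and 1.27 CPM in immune cells. Its calls, which enter these counts, are therefore descriptions and not tests. Against immune cells 8 were higher and 3 lower (51.2% and 30.8%).

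Partners and inhibitors were followed from a list of 17 genes, of which 13 were tested in each fit: E proteins, which pair with Tcf21 and Twist1, Id proteins, which block that pairing, and corepressors and cofactors of Mef2 and Zeb factors. In myofibroblast-like cells 6 were higher and 3 lower (19.4% and 13% of all genes), with Tcf3 higher by 0.61 and the inhibitor Id1 lower by 1.15. In pericyte-like cells 3 were higher and 4 lower (20.4% and 17.9%), with Id1 higher by 0.68 and Id2 lower by 1.15. In matrix fibroblast-like cells 2 were higher and 3 lower (10.7% and 19%), and the largest rise was Id4, at 0.48. Tcf4, an E protein, was higher in mesenchyme than in epithelium by 1.82 and lower than in endothelium, at 170 beside 522 CPM (−1.57). Id2 was lower in mesenchyme than in epithelium (207 beside 750 CPM, −1.81), and Id3 was higher than in immune cells (871 beside 68.1 CPM, 3.50). The lists of relatives and partners had a median log2 difference from epithelium of 0.99 and 0.55, beside 0.12 for all genes and 3.55 for the 8 members tested. The members were named as mesenchymal regulators, so their median is a description and not a test.

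The genes whose levels were most like a member's were found over 10 classes of the E17.5 lungs, among 4280 genes kept out of clustering, by Pearson's r of log2(CPM + 10). The points share libraries and depth, and r is given as a description. Tcf21 and Lbh were near each other (r = 0.97), with Gm9780 (0.97) and Serping1 (0.96) also near Tcf21, and Gm15050 (0.95) and Cdh11 (0.93) near Lbh. Meox2 was nearest to Fgfr4 (0.95), a growth factor receptor, and had r = 0.93 with Tcf21 and 0.91 with Lbh. Maf was nearest to Rbpj (0.94), the Notch effector, and was also near Apoe (0.92). Ebf1 was nearest to Cdh2 (0.95), which encodes N-cadherin, then Aoc3 and Foxs1 (both 0.93). Prrx1 was nearest to Twist2 (0.95), Zeb1 to Rhoj (0.94), Zeb2 to Mia3 (0.98) and Mef2c to Ppt2 (0.93). The r of Twist1 with its nearest gene, Angptl2 (0.96), rests on a mean of 0.928 CPM.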

How the data were processed

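Single-cell RNA libraries came from the E16.5 sort (1 sample) and from 3 lungs at E17.5. The deposited signal values are UMI counts of each cell scaled to the sample's median total, read from the values themselves: 100% came out as whole counts (tolerance 0.01), and Cell Ranger 1.3.1 and Seurat 3.0.0 are named per the submitters' processing notes, without their roles. No label or file header read here names a build. The design assumed counts; the files held signal, and recovered UMIs were used for CPM and edgeR.

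Called doublets (30 to 36 per sample, scrublet in scanpy 1.11.5) were removed. Genes were split by a hash into a clustering set and a held-out set with all members, relatives and partners, so no tested gene shaped a cluster. Cells were clustered on 2000 variable genes (30 components, 15 neighbours, Leiden resolution 1), sort and lungs apart. Clusters were named from marker lists; ties were settled by a rule set after the clusters were seen. Within the leading genes used for naming, held-out genes could appear.

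Mean CPM per class and lung was tested with limma 3.58.1 on log2(CPM + 10) with the lung as a block (classes of one animal are paired) over genes averaging 10 CPM or more, with Benjamini-Hochberg adjustment over all of them. Each gene's variance was moderated towards that of all tested genes, with 17.5 prior beside 6 residual degrees of freedom in both fits. Same-lung deviations correlated at 0.224 to 0.420 over compartments and 0.0744 to 0.151 over subclasses. On simulated data, with 200 changed genes, all of those changed 4-fold and 83% of those changed 2-fold were called in the matrix fibroblast-like contrast (4103 genes), and 100% of both in mesenchyme against epithelium (4201 genes). All 10 members are described; relatives and partners with the largest change in each direction, at most 3, and the 3 genes nearest to each member could be named, and some of these are not reported here. The members and lists were chosen with earlier results of these data known. Alternatives were another pseudocount, no filter, median-of-ratios scaling, summed UMIs, no block, leaving out each lung, edgeR 4.0.16, doublets kept, cells over 10% mitochondrial UMIs left out, Leiden resolution 0.5 and, added after the data were seen, a fit without the mixed Agtr2 class.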

Additional observations from a re-analysis of the deposited data

Results flagged for a closer look

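Contrasts that took opposite signs in the single sort and in all 3 lungs stand out for 3 results, and in each the difference was not tested. Ebf1 in the Agtr2 class minus the other subclasses was −1.08 on the log2(CPM + 10) scale in the E16.5 sort and 2.15 in the lungs (1.99 to 2.30 over lungs). Mef2c in the same class was −1.01 in the sort and 1.46 in the lungs (1.23 to 1.73). In the lungs this class also held the sub-clusters with Fabp4 and with Myl7 among their leading genes, where both Ebf1 and Mef2c were high. The sort's 29 cells formed a cluster apart from such cells, which were in other clusters there. Prrx1 in matrix fibroblast-like cells was 0.68 above the other subclasses in the sort and −0.56 in the lungs (−0.83 to −0.19). The Agtr2 class is among the others in both. It had the highest Prrx1 of the subclasses in each, at 69.1 CPM in the sort and 93.9 to 124 CPM in the lungs. The part of the Agtr2 class in these results was not tested. Stage, reporter alleles, sorting and library cannot be told apart in any of them.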

How the results depend on the processing

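Of the counts of called members, 191 of 200 alternative values stayed within 1.5 times the main count. The pericyte-like class had 3 members lower, in place of 5, with a pseudocount of 1 CPM, with no replicate block, in edgeR and with 3 subclasses in the fit, and 3 to 4 when each lung was left out. The Agtr2 class had 0 to 1 lower when a lung was left out, 0 without lung 1 or lung 2. Members apart upward in the sort were 1, in place of 2, without cells over 10% mitochondrial UMIs: Prrx1 and Twist1 were lost and Maf was gained. Members apart downward were 0, in place of 2, at Leiden resolution 0.5, where the sort had no Agtr2 class. Of single values, 703 kept direction and side of the threshold, 27 lost and 11 gained the call, and 6 changed sign. Those 6 were Mef2c in mesenchyme minus immune cells (−0.16 with median-of-ratios scaling and −0.11 in edgeR), Meox2 in pericyte-like cells minus others (0.037 with a pseudocount of 1 CPM and 0.083 in edgeR), and Prrx1 with 3 subclasses in the fit (0.20 in matrix fibroblast-like and 0.22 in pericyte-like cells). The last follow from leaving out the class with the highest Prrx1; for the others the cause was not tested. Over all genes the median difference went, with median-of-ratios scaling, from 0.12 to −0.01 against epithelium and from 0.19 to −0.09 against immune cells. Depth limits Twist1 (19 UMIs in the lungs' mesenchyme), Zeb1 and Prrx1.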
